A study of Mus musculus with 2 samples.

Results

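The 10 genes described here encode the enzymes, transporters and matrix proteins that set whether cartilage and bone matrix takes up mineral. They were found by their symbols in the gene column of the RNA-Seq count table, and all 10 were among its 24421 rows. The enzymes were *Alpl*, *Enpp1* and *Phospho1*, the membrane transporters were *Ank*, *Slc20a1* and *Slc20a2*, and the secreted matrix proteins were *Mgp*, *Spp1*, *Ibsp* and *Bglap*. The RNA-Seq data hold 1 library of primary chondrocytes, freed by collagenase from the rib cartilage of newborn mice and kept for no more than 2 passages, beside 1 library of primary dermal fibroblasts, which came from the dorsal skin of newborn mice. The study compared these cell types to narrow down transcription factors expressed in chondrocytes. No treatment is given for either library, and the strain and the number of animals behind each are not given in the sources used here. The number of passages of the chondrocytes that were sequenced is also not given, and rib cartilage holds resting, proliferating and hypertrophic chondrocytes together.

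Mineral in cartilage is a hydroxyapatite of calcium and phosphate, and its growth is held back by inorganic pyrophosphate outside the cell. Pyrophosphate is made from extracellular ATP by ENPP1 and brought to the cell surface with the help of ANK, and it is broken down to phosphate by the alkaline phosphatase ALPL. PHOSPHO1 frees phosphate inside the matrix vesicles that bud from hypertrophic chondrocytes and osteoblasts, and the SLC20A proteins carry phosphate into the cell. MGP and osteopontin (*Spp1*) bind mineral and hold back its growth, bone sialoprotein (*Ibsp*) promotes its start, and osteocalcin (*Bglap*) is a product of mature osteoblasts.

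The deposited values were read counts that summed to 18788599 in chondrocytes and 17563724 in dermal fibroblasts. Levels are given here in CPM, the usual unit of counts scaled to library size, with TMM factors so that most genes are level between the libraries, and a fold is the CPM in chondrocytes divided by that in dermal fibroblasts, with a 95% Clopper-Pearson counting interval. With 1 library per cell type there is no replicate spread and no test, so the intervals cover counting error only and describe these libraries. The labels were checked with *Sox9* (5045 counts in chondrocytes, 342 in dermal fibroblasts), *Acan* (148105 and 35), *Col2a1* (1447098 and 0) and *Col1a1* (39143 and 322379), each in the direction of its label. All 7 cartilage markers were over 2-fold higher in chondrocytes, and 5 of 6 dermal fibroblast markers were over 2-fold higher in dermal fibroblasts.

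The sequences before the start sites of *Ibsp*, *Spp1* and *Bglap* are shown because these bone matrix genes had very unlike read numbers, and those of *Enpp1* and *Alpl* because one enzyme makes pyrophosphate, the other removes it and both were higher in chondrocytes. Each is the 150 bases before the outermost RefSeq start in GRCm38.p6, read 5′ to 3′ on the strand of the gene. Capitals mark matches, on either strand, to 6 short motifs. The TATA box was searched as TATAAA and the CCAAT box by the letters of its name. The core of RUNX sites was searched as ACCACA and the GC box as GGGCGG. The core of SOX sites was searched as ACAAAG and that of homeodomain sites as TAATTA. The window of *Ibsp* is chr5:104299137-104299286, plus strand, and that of *Spp1* is chr5:104434961-104435110, plus strand. Those of *Bglap*, *Enpp1* and *Alpl* are chr3:88384467-88384616, minus strand, then chr10:24712160-24712309, minus strand, and chr4:137796385-137796534, minus strand.
Ibsp: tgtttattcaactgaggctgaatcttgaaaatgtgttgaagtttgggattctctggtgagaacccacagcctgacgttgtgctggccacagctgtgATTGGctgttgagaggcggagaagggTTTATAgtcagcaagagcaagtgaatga
Spp1: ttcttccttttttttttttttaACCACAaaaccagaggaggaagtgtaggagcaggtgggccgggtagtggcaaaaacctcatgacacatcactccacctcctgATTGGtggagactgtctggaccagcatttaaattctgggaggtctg
Bglap: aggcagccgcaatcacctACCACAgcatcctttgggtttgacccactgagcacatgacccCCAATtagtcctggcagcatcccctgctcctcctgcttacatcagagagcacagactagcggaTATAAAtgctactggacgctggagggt
Enpp1: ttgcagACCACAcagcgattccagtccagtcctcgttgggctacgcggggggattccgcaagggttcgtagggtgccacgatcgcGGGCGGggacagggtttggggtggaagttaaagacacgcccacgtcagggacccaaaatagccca
Alpl: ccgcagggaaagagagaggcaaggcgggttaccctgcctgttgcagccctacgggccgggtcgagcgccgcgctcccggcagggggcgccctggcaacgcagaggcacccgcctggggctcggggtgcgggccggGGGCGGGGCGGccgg
*Ibsp* and *Bglap* had a TATA box 28 and 27 bases before the start, and *Ibsp*, *Spp1* and *Bglap* had a CCAAT box 54, 46 and 90 bases before it, counted to the first base of the match. The TATA match of *Ibsp* (TTTATA) and the CCAAT matches of *Ibsp* and *Spp1* (ATTGG) were on the strand opposite to the gene, and both matches of *Bglap* were on the strand of the gene. *Spp1*, *Bglap* and *Enpp1* had a RUNX core 128, 132 and 144 bases before the start. *Alpl* and *Enpp1* had GC boxes, at 10 and 15 bases and at 65 bases before the start, and no TATA or CCAAT box in the printed bases. A 250-base window of this kind was found for 8 of the 10 genes. In it TATAAA was found in 3 of the 8, *Bglap*, *Ibsp* and *Spp1*, against 14.9% of 19826 promoters of the same length, CCAAT in 5 against 34.4%, ACCACA in 4 against 15.1%, GGGCGG in 5 against 26.8%, ACAAAG in 2 against 17.6%, and TAATTA in 0 against 5.60%. A match is a description of the letters only. The windows of *Ibsp* and *Spp1* each had a GC content of 43.6%, those of *Alpl* and *Enpp1* had 68.4% and 61.2%, that of *Bglap* had 56.4%, and the median of all promoters was 50%.

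Of the 10 genes, 6 passed 2-fold towards chondrocytes and 0 passed it towards dermal fibroblasts. *Mgp*, *Ibsp*, *Enpp1*, *Alpl*, *Spp1* and *Ank* made up the 6, and for each the whole counting interval lay above 2-fold. *Phospho1*, *Slc20a1* and *Slc20a2* were within 2-fold, and *Bglap* stayed under the minimum of 10 counts in both libraries. Among the 14291 genes that had at least 10 counts in 1 library, 11.8% were over 2-fold higher in chondrocytes and 16.2% over 2-fold higher in dermal fibroblasts. The whole interval lay above 2-fold for 7.21% of these genes in chondrocytes and for 10.8% in dermal fibroblasts. The 9 genes with at least 10 counts had a median log2 fold of 1.54, against a median of -0.0035 over all genes tested. Together the 10 genes accounted for 0.184% of all counts in chondrocytes and for 0.0447% in dermal fibroblasts. In bulk RNA, a higher share of cells that express a gene and more RNA of that gene per cell cannot be told apart.

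**Figure D1:**
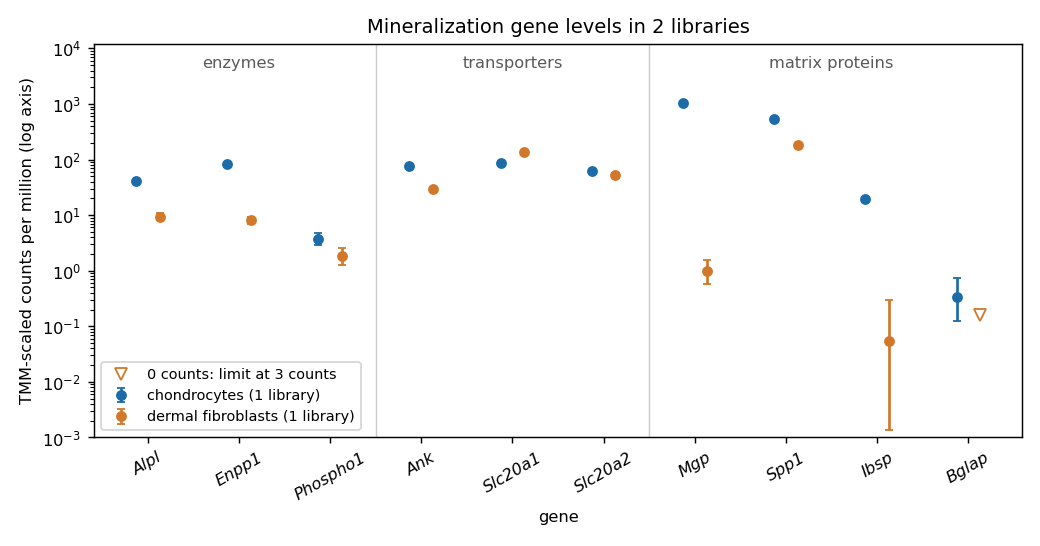
The plot shows the TMM-scaled CPM of each gene in both libraries on a log axis, with exact Poisson intervals at 95%, and an open triangle marks the limit of 3 counts for a gene at 0. The levels of *Mgp* lie farthest apart, at 1020 and 0.978 CPM, while those of *Slc20a1* and *Slc20a2* lie close together.

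The enzymes that make and remove pyrophosphate were both higher in chondrocytes. *Enpp1* (chromosome 10 of GRCm38, 24637914 to 24712159) had 1508 reads in chondrocytes against 148 in dermal fibroblasts, which is 84.1 and 8.04 CPM. It was 10.5-fold higher in chondrocytes (interval 8.83 to 12.5). *Alpl* (chromosome 4, 137741731 to 137796384) had 734 reads in chondrocytes against 173 in dermal fibroblasts, which is 40.95 and 9.40 CPM. It was 4.36-fold higher (interval 3.69 to 5.17). The intervals of these folds do not overlap, so that the enzyme that makes pyrophosphate differed more between the libraries than the enzyme that removes it. Ratios of reads within a library need no scaling, and since they leave gene length aside they serve only to set the libraries side by side. By them there were 2.05 *Enpp1* reads for each *Alpl* read in chondrocytes (interval 1.88 to 2.25) and 0.856 in dermal fibroblasts (interval 0.682 to 1.07).

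*Phospho1* (chromosome 11, 95824500 to 95832140), the phosphatase of matrix vesicles, had the fewest reads of the 3 enzymes. It had 66 reads in chondrocytes against 34 in dermal fibroblasts, which is 3.68 and 1.85 CPM. The fold was 1.99 with an interval from 1.30 to 3.11, so it sat at the 2-fold threshold and counting error alone leaves its side unsettled. It passed 2-fold with 3 of the 5 other scalings, at 2.04 to 2.17, and not with total counts (1.815) or DESeq2 size factors (1.965). Its annotated span overlaps that of *Abi3*, a gene with 26 and 49 counts, and whether the counting used the strand is not given in the sources used here. *Alpl* had 11.1 reads for each *Phospho1* read in chondrocytes (interval 8.64 to 14.5) and 5.09 in dermal fibroblasts (interval 3.51 to 7.58).

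Among the transporters, *Ank* was over 2-fold higher in chondrocytes and the phosphate carriers were within 2-fold. *Ank* (chromosome 15, 27466677 to 27594909), which takes part in the export of pyrophosphate or its precursor ATP, had 1383 reads in chondrocytes against 549 in dermal fibroblasts, which is 77.2 and 29.8 CPM. It was 2.59-fold higher in chondrocytes (interval 2.34 to 2.86), and its span overlaps *Gm29901* and *Mir7117*. Both genes of the pyrophosphate supply, *Enpp1* and *Ank*, thus had their higher level in chondrocytes, and the fold of *Enpp1* was the larger of them beyond counting error. In reads there were 1.09 *Enpp1* reads for each *Ank* read in chondrocytes (interval 1.01 to 1.17) and 0.270 in dermal fibroblasts (interval 0.223 to 0.324).

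The sodium-dependent phosphate carriers had their higher levels in different libraries, by a small margin for *Slc20a2*. *Slc20a1* (chromosome 2, 129198773 to 129211615) had 1553 reads in chondrocytes against 2530 in dermal fibroblasts, which is 86.6 and 137 CPM. Its level was 1.59 times as high in dermal fibroblasts (interval 1.49 to 1.69), and it was the 1 gene of the 10 with its higher CPM there. *Slc20a2* (chromosome 8, 22476700 to 22569616) had 1126 reads in chondrocytes against 986 in dermal fibroblasts, which is 62.8 and 53.6 CPM. Its fold was 1.17 (interval 1.08 to 1.28), and it went from 1.07 to 1.28 with the scaling used. Its span overlaps that of *Smim19*, which had 327 and 242 counts. The carriers are close relatives with the same substrate, and their proportion differed between the libraries. There were 1.38 *Slc20a1* reads for each *Slc20a2* read in chondrocytes (interval 1.28 to 1.49) and 2.57 in dermal fibroblasts (interval 2.38 to 2.765).

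**Figure D2:**
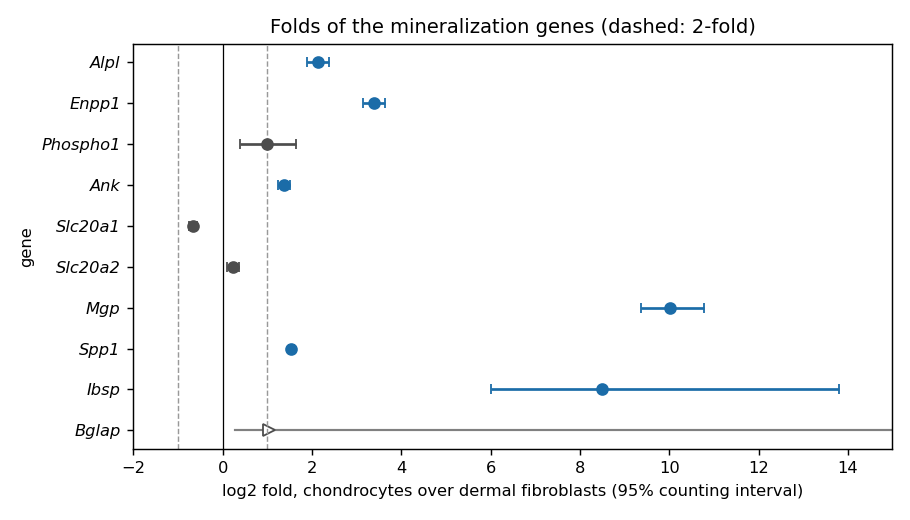
The plot shows the log2 fold of each gene, chondrocytes over dermal fibroblasts, with its 95% counting interval, dashed lines at 2-fold, blue points for genes over 2-fold higher in chondrocytes, and an open triangle for *Bglap* with its 0 set to 3 counts. The interval of *Phospho1* crosses the right dashed line, that of *Ibsp* is wide because it rests on 1 count in dermal fibroblasts, and *Slc20a1* is the only point left of 0.

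The matrix proteins held the largest and the least certain folds. *Mgp* (chromosome 6, 136872435 to 136875823) encodes matrix Gla protein, a small vitamin K-dependent protein that keeps cartilage and arteries free of mineral. It had 18280 reads in chondrocytes against 18 in dermal fibroblasts, which is 1020 and 0.978 CPM. The fold was 1043 (interval 660 to 1760), the rank 17 of the 14291 genes tested, ordered from the highest fold in chondrocytes. By count it was rank 93 of all genes in chondrocytes and rank 12875 in dermal fibroblasts. *Mgp* made up 52.8% of the counts of the 10 genes in chondrocytes and 0.229% in dermal fibroblasts.

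*Spp1* (chromosome 5, 104435111 to 104441053) encodes osteopontin, an acidic phosphoprotein of mineralized matrix that macrophages and many other cells also make. It had 9639 reads in chondrocytes against 3413 in dermal fibroblasts, which is 538 and 185 CPM. It was 2.90-fold higher in chondrocytes (interval 2.79 to 3.02) and had the highest level per exon length of the 10 genes in dermal fibroblasts, where it made up 43.5% of their counts. There were 1.90 *Mgp* reads for each *Spp1* read in chondrocytes (interval 1.85 to 1.94) and 0.00527 in dermal fibroblasts (interval 0.00312 to 0.00835). The summed level of the 8 macrophage markers was 115 CPM in chondrocytes and 178 CPM in dermal fibroblasts, 0 of them were over 2-fold higher in chondrocytes and 1 in dermal fibroblasts, none was at 0 in either library, and *Lyz2* and *Cd68*, the most abundant, had 1046 and 423 counts in chondrocytes and 1639 and 600 in dermal fibroblasts. The part of macrophages in the *Spp1* levels was not tested. For these counts of markers, the shares past 2-fold over all genes tested were 11.8% towards chondrocytes and 16.2% towards dermal fibroblasts. Osteoclasts also make osteopontin, and of their 8 markers, of which 4 had at least 10 counts, 0 were over 2-fold higher in chondrocytes while 3 passed 2-fold in the other direction. The summed level of that list was 53.4 CPM in chondrocytes and 400 CPM in dermal fibroblasts. *Ctsk* (750 and 6644 counts), which fibroblasts also express, and *Mmp9* (101 and 468) led the list. *Dcstamp*, *Ocstamp* and *Calcr* were at 0 in chondrocytes, and *Calcr* was at 0 in dermal fibroblasts too.

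*Ibsp* (chromosome 5, 104299287 to 104311472) encodes bone sialoprotein, which hypertrophic chondrocytes and osteoblasts make at sites of new mineral. It had 349 reads in chondrocytes against 1 in dermal fibroblasts, which is 19.5 and 0.0543 CPM. The ratio was 358.5 with an interval from 63.9 to 14198, since the dermal fibroblast level rests on 1 read. With that count set to a floor of 3 reads the fold was 119.5, which placed it at rank 38 of the genes tested. *Spp1* exceeded *Ibsp* by 27.6 reads to 1 in chondrocytes (interval 24.8 to 30.8) and by 3413 to 1 in dermal fibroblasts (interval 612 to 134845).

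Genes of hypertrophic chondrocytes and osteoblasts, which also express *Ibsp*, *Alpl* and *Spp1*, were in part higher in chondrocytes too. *Col10a1*, the collagen of the hypertrophic zone, had 10378 reads in chondrocytes against 3 in dermal fibroblasts, and *Mmp13* had 2276 and 296. Of the 6 hypertrophic markers 3 were over 2-fold higher in chondrocytes, 3 were within 2-fold, none was at 0, and their summed level was 896 CPM against 188 CPM. Of the 6 osteoblast and osteocyte markers reported here, 3 had at least 10 counts and were over 2-fold higher in chondrocytes, and none was at 0. The most abundant of them were *Sp7*, a transcription factor of osteoblasts and hypertrophic chondrocytes, with 156 and 13 counts, and *Dmp1*, with 48 and 1. *Dmp1* and *Phex* (23 and 1) reached 10 counts in chondrocytes only, so a call towards dermal fibroblasts was not open to them. Under the minimum were *Ifitm5* (3 and 4 counts), *Sost* (4 and 2) and *Bglap2* (5 and 1). The shares past 2-fold over all genes tested were 11.8% towards chondrocytes and 16.2% towards dermal fibroblasts. *Dmp1*, *Phex* and *Bglap2* are counted again among the pathway genes given later. The part of hypertrophic chondrocytes or osteoblasts in the higher *Ibsp*, *Alpl* and *Spp1* levels was not tested.

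*Bglap* (chromosome 3, 88383495 to 88384466), the osteocalcin gene, had 6 reads in chondrocytes against 0 in dermal fibroblasts, which is 0.335 CPM against a level of up to 0.163 CPM that a count of 0 allows. With the 0 set to the floor of 3 counts the fold was 2.05, and the counting interval of the fold starts at 1.21. The gene belongs to a cluster with the related genes *Bglap2* and *Bglap3* over 15851 bp, and reads of similar sequence could be split among them. *Bglap2* had 5 reads in chondrocytes against 1 in dermal fibroblasts, and *Bglap3* had 2 and 5. The 3 genes together had 13 and 6 counts, a fold of 2.23 with an interval from 0.789 to 7.14. A difference in the summed count of the 3 genes was not detectable at this depth, as the interval of its fold includes 1. *Bglap* and *Bglap2* had more reads in chondrocytes and *Bglap3* had more in dermal fibroblasts, so the sum does not speak for each gene.

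**Figure D3:**
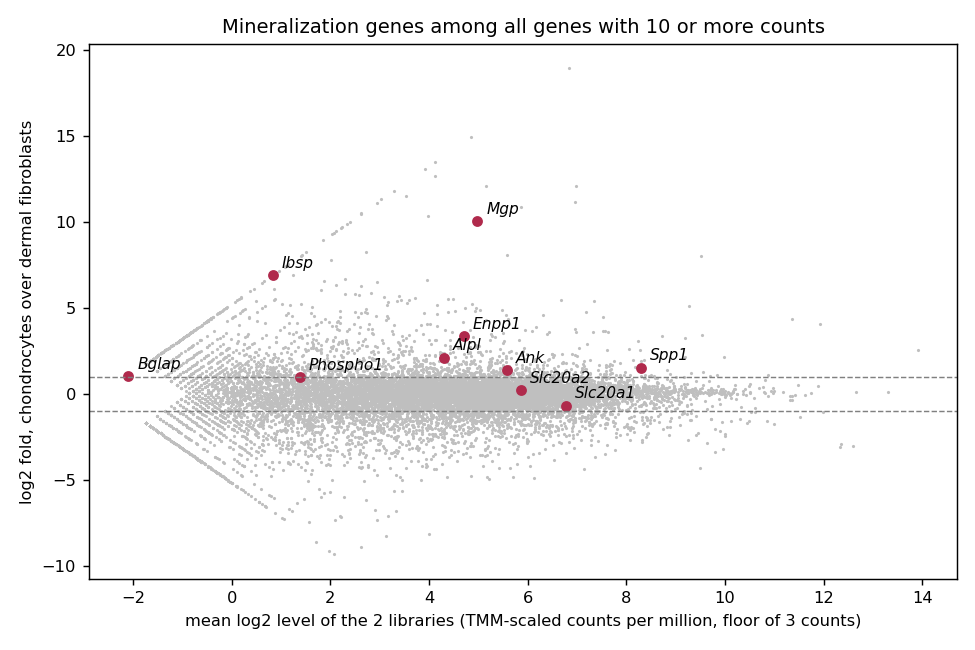
The plot places the 10 genes (red) among all genes with 10 or more counts in 1 library (grey), with the mean log2 CPM of both libraries on the x axis and the log2 fold on the y axis, counts under 3 set to 3, and dashed lines at 2-fold. *Mgp* and *Ibsp* stand near the upper edge of the cloud, *Spp1* lies farthest to the right of the 10, and *Slc20a2* and *Slc20a1* lie inside the dashed lines.

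Levels of different genes can be set side by side only per length, so RPKM (counts scaled to exon length and library size) were computed with the merged exon lengths of the GENCODE vM1 annotation. In chondrocytes the order was *Mgp* (1705), *Spp1* (326), *Ank* (21.4), *Slc20a2* (17.2), *Slc20a1* (15.5), *Alpl* (10.15), *Ibsp* (9.42), *Enpp1* (8.20), *Phospho1* (1.71) and *Bglap* (0.542). The counting intervals of neighbours overlapped for *Slc20a2* and *Slc20a1*, for *Alpl* and *Ibsp*, and for *Ibsp* and *Enpp1*. In dermal fibroblasts the order was *Spp1* (112.5), *Slc20a1* (24.6), *Slc20a2* (14.7), *Ank* (8.27), *Alpl* (2.33), *Mgp* (1.64), *Phospho1* (0.859), *Enpp1* (0.784) and *Ibsp* (0.0263), with *Bglap* at 0 counts. Here the intervals of *Alpl* and *Mgp*, of *Mgp* and *Phospho1*, of *Phospho1* and *Enpp1*, and of *Ibsp* and *Bglap* overlapped. *Mgp* thus went from the top of the list in chondrocytes to rank 6 in dermal fibroblasts, while the phosphate carriers went from ranks 4 and 5 to ranks 3 and 2. The middle of the order in chondrocytes depends on the length used. With the longest transcript in place of the merged exons, *Slc20a1* (26.1) stood above *Ank* (22.1) and *Slc20a2* (17.2), and *Enpp1* (12.4) above *Ibsp* (9.42).

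**Figure D4:**
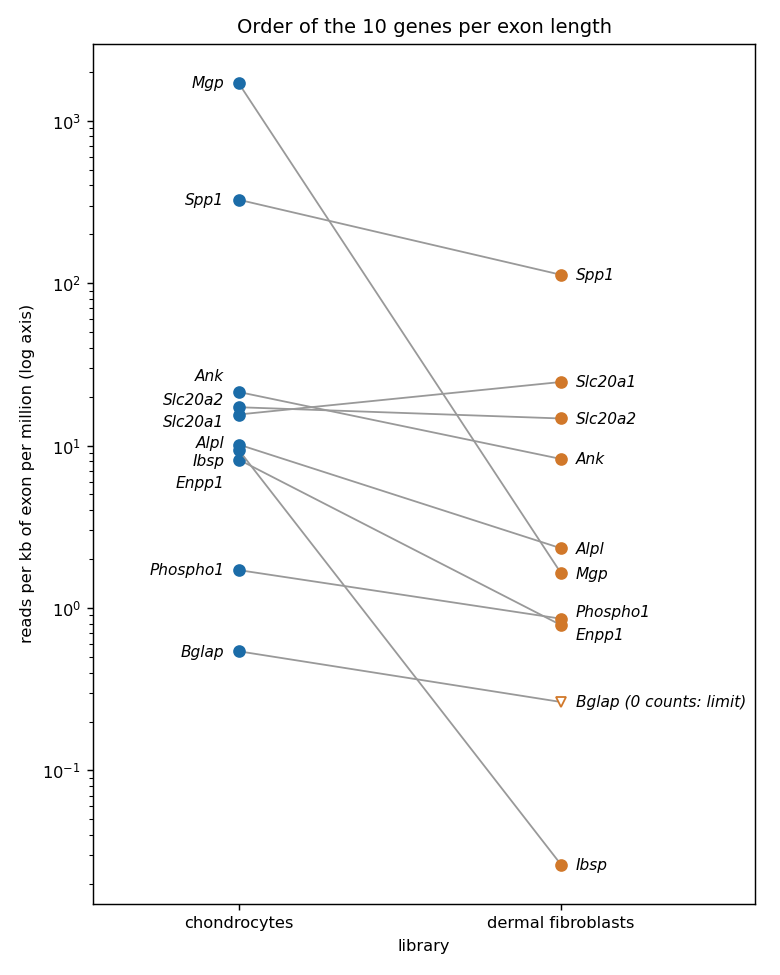
The plot joins the level of each gene in chondrocytes (left) to its level in dermal fibroblasts (right), in RPKM on a log axis, with an open triangle at the limit of 3 counts for *Bglap*. The lines of *Mgp* and *Ibsp* fall most steeply, and only the line of *Slc20a1* rises.

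*Ibsp* and *Spp1* lie in the cluster of SIBLING genes (small integrin-binding proteins of bone and dentin) on chromosome 5, which spans 270351 bp from *Dspp* to *Spp1*. The members of the cluster did not share a level. *Dspp* and *Mepe*, the genes of dentin sialophosphoprotein and of a matrix phosphoglycoprotein of osteocytes, had 0 counts in both libraries, and *Dmp1*, a protein of osteocytes and dentin, had 48 and 1. *Mepe* starts 13857 bp after the end of *Ibsp*, and *Spp1* starts 123639 bp after it. The genes at the borders of the cluster, *Sparcl1* and *Pkd2*, were within 2-fold, at folds of 1.35 and 0.599.

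Of 38 other genes of the mineralization pathways, 25 had at least 10 counts in 1 library, 8 were over 2-fold higher in chondrocytes, 4 were over 2-fold higher in dermal fibroblasts and 13 were within 2-fold. Over all genes tested the shares past 2-fold were 11.8% and 16.2%, so the 4 of 25 in dermal fibroblasts lie at the background. The remaining 13 had fewer than 10 counts in both libraries. The median log2 fold of the 25 was 0.54, against -0.0035 for all genes tested. In the supply and removal of pyrophosphate, *Nt5e*, the surface enzyme that turns AMP to adenosine, had 3440 and 809 counts and was 4.37-fold higher in chondrocytes (interval 4.04 to 4.72). *Enpp3*, a relative of *Enpp1*, had 23 and 216 counts and was higher in dermal fibroblasts by 9.14-fold (interval 5.94 to 14.7). These 2 members of the family thus lay on opposite sides. The pyrophosphatases inside the cell, *Ppa1* and *Ppa2*, were within 2-fold, and *Abcc6* had 1 and 0 counts.

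Among the genes of phosphate transport and its hormones, *Slc34a1*, *Slc34a2* and *Slc34a3*, the phosphate carriers of kidney, gut and lung, were at 0 in both libraries, and the phosphate exporter *Xpr1* had a fold of 1.39. *Galnt3*, which glycosylates the phosphate hormone FGF23, had 300 and 15 counts and was 20.5-fold higher in chondrocytes (interval 12.3 to 37.2). *Phex*, a peptidase of osteoblasts and osteocytes, had 23 and 1 counts, a ratio of 23.6 with an interval from 3.84 to 973. In the list of matrix vesicles and phosphocholine, which holds the source of the substrate of *Phospho1*, *Smpd3*, a neutral sphingomyelinase needed for skeletal mineralization, had 2750 and 29 counts and was 97.4-fold higher in chondrocytes (interval 67.7 to 146). The annexins *Anxa2*, *Anxa5* and *Anxa6* and the choline genes *Slc44a1* and *Chka* were within 2-fold, from 0.834 to 1.47.

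Among the mineral-binding proteins and their kinases, *Omd*, osteomodulin, had 1309 and 100 counts and was 13.4-fold higher in chondrocytes (interval 10.96 to 16.65). *Dmp1* had a ratio of 49.3 that rests on 1 read in dermal fibroblasts (interval 8.44 to 1987), and *Fetub* had 35 and 3 counts, a ratio of 12.0 (interval 3.78 to 60.9). *Sparc*, osteonectin, the gene of these lists with the most reads, had 120019 and 115617 counts and a fold of 1.07. *Fam20c*, the kinase that phosphorylates osteopontin and bone sialoprotein, had a fold of 1.90 (interval 1.68 to 2.15), and *Fam20a*, its partner, had 54 and 580 counts and was higher in dermal fibroblasts by 10.5-fold (interval 7.90 to 14.1).

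MGP and osteocalcin need vitamin K-dependent carboxylation. The carboxylase *Ggcx* had 1243 and 1297 counts, a fold of 0.984, and the vitamin K reductases *Vkorc1* and *Vkorc1l1* had folds of 1.68 and 0.737, so the enzymes of this step were within 2-fold while *Mgp* was 1043-fold apart. *Ucma*, the Gla-rich protein of cartilage, had 4212 and 0 counts. With the 0 set to the floor of 3 counts its fold was 1442, and the counting interval starts at 1172. *Gas6* (6072 and 15634 counts) and *Pros1* (1745 and 5232 counts), Gla proteins that bind receptor kinases, were 2.51-fold (interval 2.43 to 2.58) and 2.92-fold (interval 2.77 to 3.08) higher in dermal fibroblasts. *Mgp* and *Ucma*, the Gla proteins of cartilage, were thus higher in chondrocytes, and *Gas6* and *Pros1* in dermal fibroblasts.

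**Figure D5:**
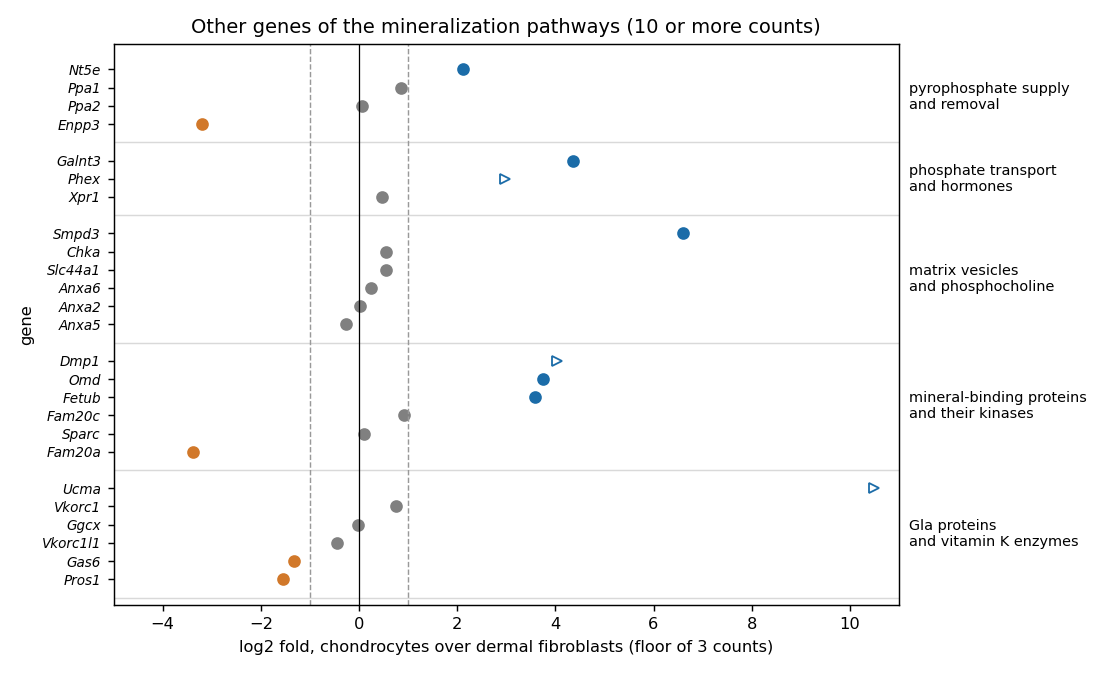
The plot shows the log2 fold, chondrocytes over dermal fibroblasts, of the 25 other pathway genes with at least 10 counts, by list, with counts under 3 set to 3, open triangles where that applied in dermal fibroblasts, and blue or orange points for genes over 2-fold higher in chondrocytes or dermal fibroblasts. *Ucma* and *Smpd3* lie farthest to the right, and *Enpp3* and *Fam20a* farthest to the left.

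Reads of genes used as markers of other cell types were found in both libraries, some of them few and some from genes that fibroblasts also express, such as *Acta2* and *Tagln*. Whether such cells were present, and their part in the levels above, was not tested. The counts of markers past 2-fold stand beside shares over all genes tested of 11.8% towards chondrocytes and 16.2% towards dermal fibroblasts. Arterial smooth muscle also makes *Mgp*. Of the 6 smooth muscle markers 1, *Des* (3790 and 1655 counts), was over 2-fold higher in chondrocytes while 3 passed 2-fold in the other direction. *Acta2* (9075 and 25773 counts) and *Tagln* (2041 and 7518) led the list in dermal fibroblasts, and the summed level was 971.5 CPM against 2045 CPM. Endothelial markers had a summed level of 14.51 CPM against 44.98 CPM, and 5 of the 6 were over 2-fold higher in dermal fibroblasts. *Kdr* (70 and 276 counts) and *Cdh5* (68 and 198) led in that library. Keratinocyte markers had 8.93 CPM against 248.7 CPM, and 4 of the 6 were over 2-fold higher in dermal fibroblasts. *Krt14* (17 and 1939 counts) and *Krt5* (1 and 1693) led in dermal fibroblasts, while *Krt10* (72 and 108) led in chondrocytes. Skeletal muscle markers had 1521 CPM against 1198 CPM, with *Myh3* (7784 and 6497 counts) and *Actc1* (7288 and 7970) leading, and 2 of the 5 were over 2-fold higher in chondrocytes. No marker of these 4 lists was at 0 in either library.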

How the data were processed

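Total RNA of 1 library per cell type was made into TruSeq stranded mRNA libraries and sequenced as 75 bp single-end reads. Per the labels and the study's methods, the authors called bases with CASAVA 1.8.2, mapped the reads to mm10 with TopHat2 2.0.13 and Bowtie2 2.2.3, used SAMtools 0.1.19, and deposited whole-number counts per gene symbol without normalization. The counting program, its annotation and its use of strand are not given in the sources used here.

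From the counts, TMM factors were computed with edgeR 4.0.16 in R 4.3.3, and folds and exact Poisson or Clopper-Pearson 95% intervals with scipy 1.17.1 (Python 3.11.15, pandas 2.3.3, numpy 2.4.6). PCR copies cannot be told from separate molecules here, so the intervals, and the limit of 3 counts for a count of 0, hold for counting error alone. A gene was tested with at least 10 counts in 1 library, counts under 3 were set to 3 for calls, ranks and medians, and a call was a fold over 2. A fold against 1 or 2 counts is the plain ratio. No p-value was computed. The calculations were tested on simulated counts. In 27 rows the symbol had turned into a date, and none of them was among the genes described.

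The alternatives were scaling by total counts, DESeq2 1.42.0 size factors, the upper quartile, *Actb* and total counts less the 10 top genes, floors of 1 and 10 counts, no filter, a minimum of 100 counts, a 4-fold threshold, and the whole interval beyond 2-fold. The genes, lists and tests were chosen with earlier results of these data known. Named were all 10 genes, the other genes of the osteocalcin cluster and up to 4 genes past 2-fold in each pathway list. Of each marker list outside the label checks, the 2 genes with the highest count in either library were named too. In the osteoblast and osteocyte list 1 marker is not reported here, so its counts cover the other markers only and no summed level is given for it. Genes within 2-fold, those at few counts and the overlapping or neighbouring genes were named after their values were seen. Positions and promoters are from RefSeq on GRCm38.p6, the same assembly as mm10. Exon lengths are from GENCODE vM1 on NCBIM37, used as lengths only.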

Additional observations from a re-analysis of the deposited data

How the results depend on the processing

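The values were recomputed under each alternative on its own. No paired analysis was possible because only 1 library stood for each cell type, and none could be left out. Relative to TMM, total counts moved every log2 fold by -0.14 and *Actb* by 0.12, and the other scalings by less. Of 70 folds of the 10 genes under the scalings and floors, 7 left the counting interval and 0 changed direction. Total counts gave 0.574 for *Slc20a1*, 1.07 for *Slc20a2* and 2.64 for *Spp1*. *Actb* gave 0.686 for *Slc20a1* and 3.16 for *Spp1*. A floor of 10 counts gave 35.9 for *Ibsp* because it replaced the dermal fibroblast count, and 1.03 for *Bglap*, where it replaced both counts and leaves no fold to read.

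Of the 10 genes, 6 or 7 passed 2-fold towards chondrocytes under each scaling, floor and filter, and 4 passed a fold over 4. The 7 came from *Phospho1* with the upper quartile, *Actb* and total counts less the 10 top genes, and from *Bglap* without a filter. None of the 10 was over 2-fold higher in dermal fibroblasts under any setting. With at least 100 counts, fewer genes were tested, and 981 and 1485 of them were over 2-fold higher in chondrocytes and dermal fibroblasts, with 5 of the pathway genes higher in chondrocytes. With a fold over 4 the numbers were 713 and 929, with 2 pathway genes higher in dermal fibroblasts. The whole interval lay above 2-fold in chondrocytes for 1031 genes, against 1684 by the point value. With the longest transcript as length, 5 of the 10 genes in chondrocytes and 8 in dermal fibroblasts kept their rank. The depth limits *Bglap*, *Phospho1* and the dermal fibroblast level of *Ibsp*.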
